A study of Mus musculus with 9 samples.

Results

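The leukotriene genes read here are 7 of the 46626 named genes in the deposited expression table of sorted mouse haematopoietic stem cells (HSCs). They were taken by symbol: Alox5, Alox5ap, Ltc4s and Lta4h make leukotrienes, and Cysltr1, Cysltr2 and Ltb4r1 receive them. The genes were picked because Cysltr2, the type 2 receptor for cysteinyl leukotrienes, had already stood out among the differences between drug-treated and saline-treated old mice in these same libraries, so its levels are given as a description without a test. RNA was sequenced from about 2000 HSCs per library, which were isolated from marrow of C57BL/6 mice by cell sorting, with 3 libraries in each of 3 groups. The BRL37344 old group was 15 to 20 months old and received the β3-adrenergic agonist BRL37344 at 2.4 mg per kg per day from osmotic pumps under the skin. The saline old group had the same stated age and the saline young group was 2 months old, and both carried pumps filled with saline. Delivery lasted 12 weeks in all, with a new pump after 6 weeks, so the stated ages may be those at the start. Groups follow the sample titles. The sample descriptions, which head the table's columns, end in HSC-Y-S for all 9 libraries, those titled as old included, and the labels do not spell out that ending. Whether each library is a mouse of its own is not stated in the labels, and p-values then measure library-to-library spread alone, possibly of technical origin. Every level below is in RPKM, a read count scaled to library size and to transcript length so that genes can be set side by side.

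Leukotrienes are lipid signals made from arachidonic acid, mostly by myeloid cells during inflammation and allergy. 5-lipoxygenase, helped by its membrane partner FLAP, makes the unstable leukotriene A4, which is then turned either into leukotriene B4 or, by addition of glutathione, into leukotriene C4, the first of the cysteinyl leukotrienes. Leukotriene B4 draws in neutrophils through its receptor, while the cysteinyl leukotrienes tighten smooth muscle and make vessels leak through receptors of their own. All of these receptors couple to G proteins.

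Cysltr2 was the member whose level separated all 3 groups. It lay at an intermediate level in BRL37344 old HSCs, was highest in saline old HSCs and was lowest in saline young HSCs. Alox5ap, which encodes FLAP, was among the most abundant transcripts and hardly varied. Of the members that reached 1 RPKM, Alox5 and Ltb4r1 varied most from library to library, and both were highest in 1 young library that also held the most neutrophil marker RNA.

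The start regions of these 3 variable members are shown because their RNA levels differed most, relative to the other members, between groups or between libraries. Each sequence is the 250 bases before the RefSeq gene start in build GRCm38.p6, read on the gene's own strand. Capitals mark matches, on either strand, to TGACG or its palindromic form TGACGTCA, the cAMP response element, to GATAA of the GATA factors, to TGTGGT of the RUNX factors, or to GAGGAA of the PU.1 factor. TGACG lies within TGACGTCA, and the others do not overlap.
Cysltr2, chr14:73049115-73049364, minus strand: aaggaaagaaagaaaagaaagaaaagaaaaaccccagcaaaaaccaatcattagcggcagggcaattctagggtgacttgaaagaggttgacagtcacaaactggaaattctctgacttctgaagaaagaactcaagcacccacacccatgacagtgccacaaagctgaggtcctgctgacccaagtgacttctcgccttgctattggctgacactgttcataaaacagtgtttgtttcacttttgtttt
Alox5, chr6:116461179-116461428, minus strand: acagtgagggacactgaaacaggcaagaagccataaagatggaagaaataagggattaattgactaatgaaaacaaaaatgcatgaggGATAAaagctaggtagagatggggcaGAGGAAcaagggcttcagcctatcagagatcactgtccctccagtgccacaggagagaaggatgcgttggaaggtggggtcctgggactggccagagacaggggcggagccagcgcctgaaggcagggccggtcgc
Ltb4r1, chr14:55765712-55765961, plus strand: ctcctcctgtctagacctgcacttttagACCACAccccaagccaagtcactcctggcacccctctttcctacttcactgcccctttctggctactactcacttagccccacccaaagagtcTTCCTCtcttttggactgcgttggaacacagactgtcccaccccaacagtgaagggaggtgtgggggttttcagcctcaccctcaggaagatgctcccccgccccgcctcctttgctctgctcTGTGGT
The Cysltr2 window held none of these strings and had a GC content of 42.8%, against 52.8% for Alox5 and 56.8% for Ltb4r1. The Alox5 window held GATAA and GAGGAA once each. The Ltb4r1 window held TGTGGT 2 times, once in its last 6 bases, and GAGGAA once. Such matches are common: of 27025 promoter windows of this length, 23.0% hold GATAA, 23.1% hold GAGGAA, 14.2% hold TGTGGT, 17.9% hold TGACG and 1.6% hold TGACGTCA. A match describes the letters only, and no binding was measured. Of the 7 members, 5 had an entry in the RefSeq promoter table, and Cysltr1 and Alox5ap are named only.

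The libraries carried HSC RNA with a variable amount of RNA typical of other blood cells. All 10 HSC markers, among them Kit, Slamf1, Procr and Mecom, were at 1 RPKM or more in all 9 libraries. The summed level of 10 neutrophil markers ranged from 177.9 to 5417 RPKM in BRL37344 old, from 680.0 to 905.2 RPKM in saline old and from 1056 to 18600 RPKM in saline young libraries. The top of that range was saline young replicate 3, where S100a8 stood at 8654 RPKM, and the bottom was BRL37344 old replicate 1, where Retnlg and Mmp8 were at the table's floor. Markers of other cells were mixed, and some lists held genes at the floor beside genes that were present. Every neutrophil, granulocyte precursor, monocyte and macrophage, and erythroid marker reached 1 RPKM in some library. Granulocyte precursor markers summed to 411.1 to 825.2 RPKM in BRL37344 old libraries. The sums were 418.3 to 454.0 RPKM in saline old and 226.2 to 1552 RPKM in saline young. Prtn3 alone stood at 391.0 to 447.6 RPKM in the old libraries and at 187.0 to 422.7 RPKM in saline young. The mean log2 level of this list, less bound to Prtn3, was 2.002 to 5.639 in BRL37344 old and 1.931 to 2.085 in saline old. In saline young it was 3.083 to 6.891, wholly above saline old. By group in that order, erythroid markers summed to 30.93 to 111.2, 39.88 to 87.07 and 38.85 to 125.4 RPKM. T cell markers summed to 2.263 to 6.685, 0.2027 to 1.291 and 2.178 to 4.601 RPKM. In saline young libraries and BRL37344 old replicate 1 nearly all of that sum was Cd4, at 2.177 RPKM or more. Cd3e, Cd3g and Cd8a were at the table's floor in those libraries, and Cd3d did not pass 0.2377 RPKM. Cd3e, Cd3d and Cd3g passed 1 RPKM only in BRL37344 old replicate 2, at 1.635, 1.006 and 2.062 RPKM. In BRL37344 old replicate 3 they were at 0.3593, 0.613 and 0.5353 RPKM. Of 7 eosinophil markers Epx was at the table's floor in every library while Ccr3 reached 7.51 RPKM and Ear2 5.49 RPKM, and the list summed to 3.34 to 12.7 RPKM in BRL37344 old, 2.68 to 6.09 RPKM in saline old and 8.43 to 13.2 RPKM in saline young libraries. Of 8 mast cell and basophil markers Cma1 and Tpsb2 were at the floor in every library while Cpa3 reached 18.9 RPKM. Prss34 and Mcpt8 reached 15.7 and 6.32 RPKM in saline young replicate 3 and did not pass 0.323 and 0.254 RPKM in any other library. The list summed to 5.42 to 27.6 RPKM in BRL37344 old, 6.20 to 24.4 RPKM in saline old and 5.95 to 28.8 RPKM in saline young libraries. Of 8 B and plasma cell markers Pax5 was at the floor in every library, Cd79b was at 35.5 to 54.4 RPKM, and Jchain reached 262.7 RPKM in BRL37344 old replicate 2 and 262.5 RPKM in saline young replicate 2. That list summed to 51.4 to 326.5 RPKM in BRL37344 old, 50.9 to 57.9 RPKM in saline old and 50.6 to 324.1 RPKM in saline young libraries. Of 5 endothelial markers Cdh5 and Kdr did not pass 0.258 and 0.0436 RPKM, while Emcn, which HSCs also express, reached 32.5 RPKM and Pecam1 28.1 RPKM. Read depth, estimated from the steps between low values, was 16000000 to 45100000 reads in BRL37344 old, 15300000 to 41400000 reads in saline old and 12200000 to 22400000 reads in saline young libraries. In such bulk samples, fewer cells of a type and less RNA per cell cannot be told apart.

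Synthesis begins with Alox5, the gene of 5-lipoxygenase, on mouse chromosome 6 (116410077 to 116461178, minus strand, GENCODE M21 on GRCm38). Its level was 0.0745, 1.25 and 1.29 RPKM in BRL37344 old libraries, 0.608, 2.21 and 0.855 RPKM in saline old libraries and 1.03, 2.01 and 11.5 RPKM in saline young libraries. A single saline young library was far above all others, a single BRL37344 old library was far below, and the remaining 7 libraries of the 3 groups overlapped. At the estimated depth these values stand for about 3.1 reads in BRL37344 old replicate 1 and 673.7 reads in saline young replicate 3, against 24.4 to 152.3 reads elsewhere. On the log2(RPKM + 0.5) scale, which understates changes of low genes, the difference between saline old and saline young was -1.17 ± 0.75 (SE), and limma's adjusted p over all 13516 genes tested was 0.506. Without saline young replicate 3 it was -0.30. For BRL37344 old against saline young it was -1.56 ± 0.75, with an adjusted p of 0.556, and for BRL37344 old against saline old it was -0.39 ± 0.75. Neither test of Alox5 passed, and the saline young libraries alone spanned a wider range than the group means.

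Alox5ap encodes FLAP, the membrane protein that presents arachidonic acid to 5-lipoxygenase (chromosome 5, 149264767 to 149288153, plus strand). Its level was 244, 304 and 283 RPKM in BRL37344 old libraries, 223, 270 and 283 RPKM in saline old libraries and 214, 308 and 276 RPKM in saline young libraries. The groups overlapped throughout, and the highest library was only 1.44 times the lowest. By mean level Alox5ap stood at the 97.6th percentile of the genes tested, and Alox5 at the 18.1st. Alox5ap exceeded Alox5 by 220 to 3280 times in BRL37344 old, 123 to 368 times in saline old and 24.1 to 207 times in saline young libraries. Saline old and saline young differed by -0.03 ± 0.15 on the log2 scale (limma adjusted p = 0.953), and BRL37344 old and saline young by 0.07 ± 0.15 (adjusted p = 0.927). The sign of these small differences turned when single libraries were left out. The difference between BRL37344 old and saline old was 0.10 ± 0.15. An antisense gene that overlaps Alox5ap, Gm19719, did not pass 0.138 RPKM.

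Ltc4s, leukotriene C4 synthase, which adds glutathione to leukotriene A4, was low in every library (chromosome 11, 50236461 to 50238616, minus strand). It had 2.24, 2.97 and 2.28 RPKM in BRL37344 old libraries, 1.89, 3.46 and 3.35 RPKM in saline old libraries and 3.66, 3.66 and 5.74 RPKM in saline young libraries. Every old library, with or without the drug, was below every young one, and the 2 old groups overlapped. The difference was -0.52 ± 0.29 on the log2 scale for saline old against saline young (limma adjusted p = 0.438) and -0.68 ± 0.29 for BRL37344 old against saline young (adjusted p = 0.507), so neither passed. For BRL37344 old against saline old it was -0.15 ± 0.29. The antisense gene Gm26542 overlaps Ltc4s and had 0.779 to 2.32 RPKM, and as the strand setting of the counting is not given in the sources used here, reads of these genes cannot be told apart.

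Lta4h, leukotriene A4 hydrolase, which makes leukotriene B4, was the other abundant member and stood at the 91.2nd percentile of the genes tested (chromosome 10, 93453411 to 93484875, plus strand). It had 80.9, 88.7 and 75.7 RPKM in BRL37344 old libraries, 94.7, 92.2 and 99.0 RPKM in saline old libraries and 96.2, 107 and 147 RPKM in saline young libraries. BRL37344 old libraries lay below all the others, while the saline groups overlapped. The difference was -0.22 ± 0.15 on the log2 scale for BRL37344 old against saline old. It was -0.49 ± 0.15 for BRL37344 old against saline young (limma adjusted p = 0.260) and -0.27 ± 0.15 for saline old against saline young (adjusted p = 0.436), and neither passed. Within a library, Lta4h exceeded Ltc4s by 29.9 to 36.2 times in BRL37344 old, by 26.6 to 50.0 times in saline old and by 25.5 to 29.3 times in saline young libraries.

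Among the receptors, Cysltr2 was the one with a steady signal (chromosome 14, 73025603 to 73049114, minus strand, with no overlapping gene). It had 19.0, 20.6 and 22.8 RPKM in BRL37344 old libraries, 34.6, 30.9 and 32.2 RPKM in saline old libraries and 9.71, 9.20 and 8.68 RPKM in saline young libraries. The 3 groups were wholly apart, with a gap of 8.10 RPKM between the highest BRL37344 old and the lowest saline old library and of 9.27 RPKM between the lowest BRL37344 old and the highest saline young library. The means were 20.8 ± 1.90 RPKM in BRL37344 old, 32.5 ± 1.90 RPKM in saline old and 9.20 ± 0.515 RPKM in saline young HSCs (SD, n = 3 each). The saline old mean was thus 3.54 times the saline young mean, and the BRL37344 old mean was 0.639 times the saline old mean and 2.26 times the saline young mean. On the log2 scale the differences were 1.77 ± 0.14 for saline old minus saline young, -0.64 ± 0.14 for BRL37344 old minus saline old and 1.13 ± 0.14 for BRL37344 old minus saline young. The excess of BRL37344 old over saline young was 49.7% of the excess of saline old over saline young.

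Neutrophil markers also differed between the saline groups. The mean log2 level of the 10 markers was 1.52, 6.92 and 5.39 in BRL37344 old libraries, 4.40, 3.91 and 3.89 in saline old libraries and 4.94, 5.50 and 8.04 in saline young libraries. Saline old libraries thus lay wholly below saline young ones in this mean, and BRL37344 old libraries spread below and above saline old. Singly, Retnlg and Cxcr2 overlapped between the saline groups. The part of these markers in the Cysltr2 differences was not tested. Without saline young replicate 3 and BRL37344 old replicate 2, the libraries highest in these markers, the Cysltr2 differences were 1.73 for saline old minus saline young, -0.63 for BRL37344 old minus saline old and 1.10 for BRL37344 old minus saline young. Its order, with saline old wholly above BRL37344 old and BRL37344 old wholly above saline young, was shared by 62 of the 13516 genes tested, or 0.459%. The opposite order was seen for 40 genes, or 0.296%. Since Cysltr2 was picked on the drug difference, these shares are background and say nothing further about it.

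Among tested genes at a mean level of 3 or more on the log2 scale, the 3 whose profile over the 9 libraries was closest to that of Cysltr2 were Enpp5, Epdr1 and Ehd3. Likeness was the root mean square difference of log2 values after each gene was centred on its own mean, and it was 0.157 for Enpp5, 0.173 for Epdr1 and 0.177 for Ehd3. Ehd3, a protein of endosome recycling, had 21.7, 24.9 and 28.9 RPKM in BRL37344 old, 49.3, 44.6 and 31.1 RPKM in saline old and 10.3, 10.6 and 11.4 RPKM in saline young libraries. Enpp5, a member of the ectonucleotide pyrophosphatase family, had 139.5, 131.8 and 171.7 RPKM in BRL37344 old, 191.0, 196.7 and 182.0 RPKM in saline old and 70.9, 53.4 and 59.2 RPKM in saline young libraries. Both genes also kept all 3 groups apart. As they were picked for likeness to Cysltr2 over these same libraries, a like order follows largely from the choice. Epdr1 had 17.8, 16.9 and 24.8 RPKM in BRL37344 old, 33.5, 31.1 and 24.5 RPKM in saline old and 8.70, 8.83 and 10.1 RPKM in saline young libraries, and there the old groups overlapped by 1 library.

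**Figure D1:**
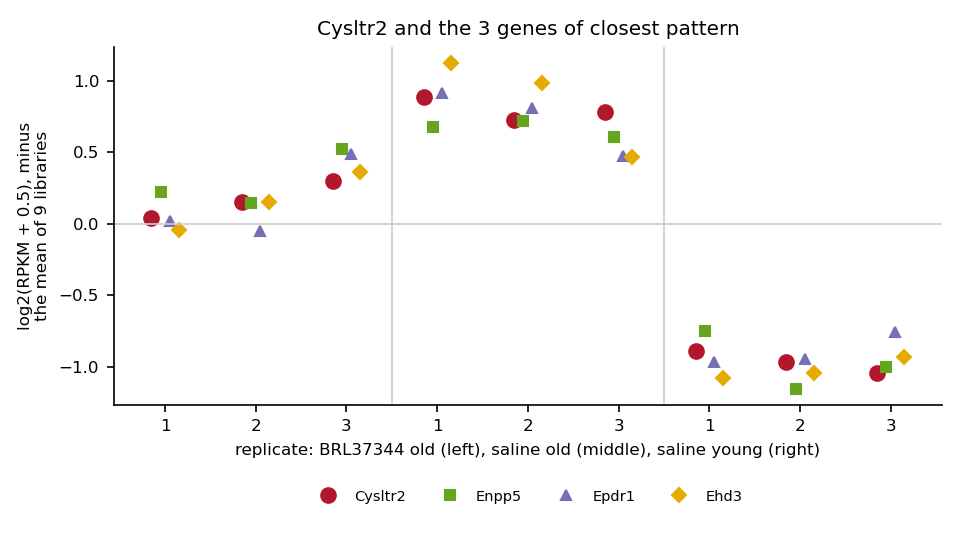
Log2(RPKM + 0.5) of Cysltr2, Enpp5, Epdr1 and Ehd3 in each library, centred on each gene's mean over 9 libraries, with replicates 1 to 3 of BRL37344 old, saline old and saline young from left to right. The genes share low values in saline young and high values in saline old libraries, and Cysltr2 differs from the others by a root mean square of 0.157 to 0.177. Those others were picked for likeness to Cysltr2 over these libraries, so the shared pattern follows largely from the choice.

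Cysltr1, the receptor through which leukotriene D4 acts most strongly, was barely present (chromosome X, 106574346 to 106603679, minus strand). It was listed at 0.291, 0.0002 and 0.844 RPKM in BRL37344 old libraries, 0.304, 0.187 and 0.532 RPKM in saline old libraries and 0.0002, 0.580 and 0.570 RPKM in saline young libraries. The value of 0.0002 is the table's floor for this gene, and it was met in 1 BRL37344 old and 1 saline young library. The groups overlapped, no library reached 1 RPKM, and Cysltr1 was left out of the test for that reason. Cysltr2 was at least 8.68 RPKM in every library, above the highest Cysltr1 value.

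Ltb4r1 encodes the high-affinity leukotriene B4 receptor of neutrophils and other leukocytes (chromosome 14, 55765962 to 55768494, plus strand). It had 0.314, 3.48 and 1.08 RPKM in BRL37344 old libraries, 1.04, 0.444 and 0.262 RPKM in saline old libraries and 1.51, 3.66 and 23.6 RPKM in saline young libraries. Saline old libraries were all below saline young ones, while BRL37344 old libraries spread across both. At the estimated depth the values stand for 6.0 to 139.4 reads in BRL37344 old, 8.9 to 19.0 reads in saline old and 22.0 to 630.6 reads in saline young libraries. The difference was -2.50 ± 0.85 on the log2 scale for saline old against saline young, with a limma adjusted p of 0.209, and it was -1.48 without saline young replicate 3. With library quality weights the same difference was -2.92, with an adjusted p of 0.0418, and the adjusted p ranged from 0.0418 to 0.457 over all alternatives. For BRL37344 old against saline young it was -1.77 ± 0.85 (adjusted p = 0.558), and for BRL37344 old against saline old it was 0.74 ± 0.85. Ltb4r2, the lower-affinity receptor gene, ends 823 bases before Ltb4r1, and it had 0.215 to 1.06 RPKM over the 9 libraries.

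Alox5 and Ltb4r1 were highest in the library where the summed neutrophil marker level was highest, and Alox5 was also lowest where that sum was lowest. Of those markers, Retnlg, Mmp8, Mmp9 and Cxcr2 were instead highest in BRL37344 old replicate 2. The granulocyte precursor markers also had their highest sum in saline young replicate 3, at 1552 RPKM. Of the mast cell and basophil markers, Prss34 and Mcpt8 were highest in that library too, while Cpa3 and Fcer1a were highest in old libraries. Saline young replicate 3 ranked 1st of the 9 libraries for Alox5, Ltb4r1, Lta4h and Ltc4s and also for the neutrophil alarmins S100a8 and S100a9, and it ranked 9th for Cysltr2. BRL37344 old replicate 1 ranked 9th for Alox5, S100a8 and S100a9 and 8th for Ltb4r1, whose lowest value was in saline old replicate 3. Between these extremes the ranks differed. Saline old replicate 2 ranked 2nd for Alox5 but 7th for S100a8 and 8th for S100a9. BRL37344 old replicate 2 ranked 2nd for S100a8 and S100a9 but 5th for Alox5 and 3rd for Ltb4r1. The genes of closest profile to Ltb4r1 were Tyrobp, an adaptor of myeloid receptors, at a root mean square difference of 0.736, S100a8 at 0.743 and S100a9 at 0.761. Those closest to Alox5 were C1qc at 0.518 and C1qb at 0.567, which encode chains of complement C1q made by macrophages, and Fcna, a ficolin, at 0.568. The summed level of 9 monocyte and macrophage markers was 592.8 to 879.2 RPKM in BRL37344 old, 547.0 to 694.4 RPKM in saline old and 702.3 to 1800 RPKM in saline young libraries. The part of these markers in the Alox5, Ltb4r1, Lta4h and Ltc4s values was not tested.

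**Figure D2:**
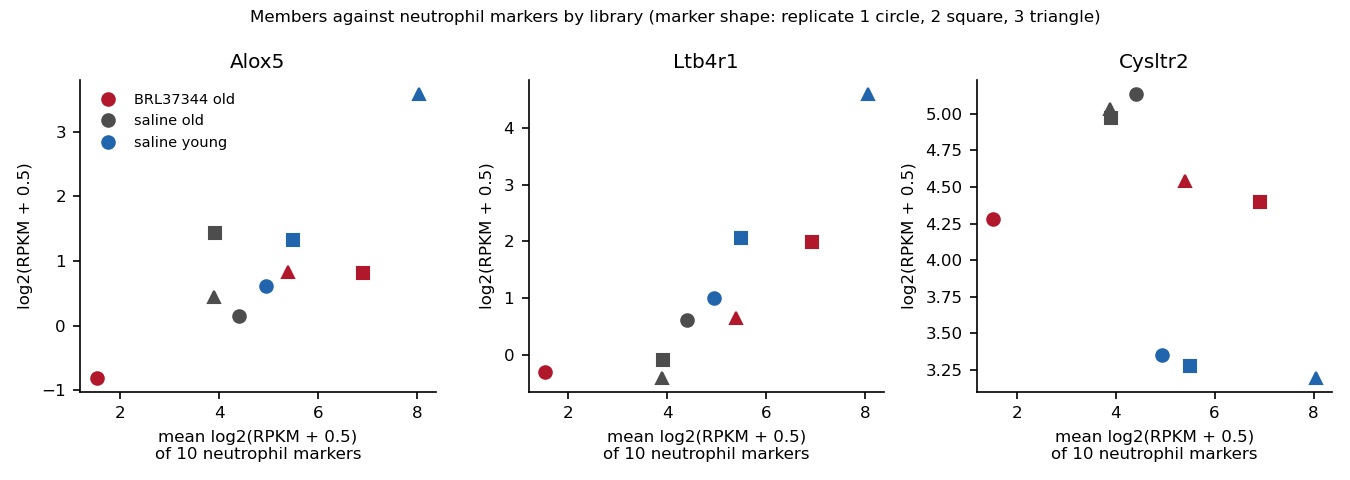
Log2(RPKM + 0.5) of Alox5, Ltb4r1 and Cysltr2 in each library against the mean log2(RPKM + 0.5) of 10 neutrophil markers, coloured by group. Alox5 and Ltb4r1 are highest in the library with the highest marker level of 8.04, and the saline groups, at 3.89 to 4.40 for saline old and 4.94 to 8.04 for saline young, do not overlap along the marker axis.

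As a group, 6 of the 7 members passed the filter on low values, and the 5 of them other than Cysltr2 were tested in the comparisons with saline young. In saline old against saline young, 0 of the 5 were called by limma, where 1.58% of all tested genes were called, 1.18% as higher and 0.4% as lower. An unadjusted p under 0.05 was given for 1 of the 5, Ltb4r1, where 15% of all genes had one. Ltc4s and Ltb4r1 were wholly below, where 10.9% of all genes were, and 0 of the 5 were wholly above, where 9.39% were (20.3% did not overlap in either direction). The median difference over the 5 was -0.52 on the log2 scale, against -0.02 over all genes tested.

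In BRL37344 old against saline young, 0 of the 5 were called, where 0.769% of all genes were called, 0.695% as higher and 0.074% as lower. Ltc4s and Lta4h had an unadjusted limma p under 0.05, where 9.38% of all genes had one. Both were wholly below, where 7.88% of all genes were, and 0 of the 5 were wholly above, where 7.29% were (15.2% did not overlap). Between BRL37344 old and saline old, the comparison that led to the choice of Cysltr2, no member was tested and nothing is read from the counts: Cysltr2 and Lta4h were wholly below, where 5.28% of all genes were (4.82% were wholly above and 10.1% did not overlap). By limma 0% of the 13516 genes were called in that comparison, and 762 of them, or 5.64%, had an unadjusted p under 0.05. These comparisons share libraries, and their counts are not independent of each other.

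The wider eicosanoid pathway was read from 55 genes in 5 lists, of which 54 were in the table and 35 passed the filter. In saline old against saline young, 2 of the 35 rose and 0 fell by limma, against 1.18% and 0.4% of all genes, with a median of -0.06 on the log2 scale. In BRL37344 old against saline old 0 of the 35 were called and 3 had an unadjusted limma p under 0.05, a mark that 5.64% of all genes reached. In BRL37344 old against saline young 1 rose and 0 fell, against 0.695% and 0.074% of all genes. Pla2g4a, cytosolic phospholipase A2, which frees arachidonic acid from membranes, had 99.2, 80.1 and 80.0 RPKM in BRL37344 old, 103.4, 91.8 and 92.9 RPKM in saline old and 68.6, 66.2 and 59.6 RPKM in saline young libraries. All old libraries were above all young ones. It rose in saline old against saline young by 0.56 ± 0.12 on the log2 scale (limma adjusted p = 0.0473), and BRL37344 old stood 0.41 ± 0.12 above saline young without passing (adjusted p = 0.228). The call of Pla2g4a is at the edge of the threshold: its adjusted p ranged from 0.0104 to 0.248 over the alternatives, and leaving out any of 7 of the 9 libraries ended it.

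Hpgds, haematopoietic prostaglandin D synthase, had 13.5, 14.4 and 8.62 RPKM in BRL37344 old, 12.4, 12.2 and 10.6 RPKM in saline old and 4.08, 3.49 and 4.59 RPKM in saline young libraries. The old groups overlapped each other and lay wholly above the young one. It rose by 1.43 ± 0.23 on the log2 scale in saline old against saline young (limma adjusted p = 0.0113) and by 1.45 ± 0.23 in BRL37344 old against saline young (adjusted p = 0.0148). Between BRL37344 old and saline old the difference was 0.03 ± 0.23 (adjusted p = 0.986). Without the libraries highest in neutrophil markers the adjusted p was 0.0609 for saline old and 0.175 for BRL37344 old, each against saline young, while the differences were 1.51 and 1.40. Leaving out saline old replicate 2 or saline young replicate 2 also ended the call in saline old, and leaving out BRL37344 old replicate 1 or 2 or saline young replicate 1 or 2 ended that in BRL37344 old, with adjusted p values of up to 0.077 among these.

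The list of other leukotriene steps had 11 tested genes, and Pla2g4a was the only one that passed in any comparison. Abcc1, a transporter that exports leukotriene C4, averaged 3.91 ± 1.78 RPKM in BRL37344 old and 1.40 ± 0.573 RPKM in saline old libraries (SD, n = 3 each), a difference of 1.17 ± 0.43 on the log2 scale that did not pass (limma adjusted p = 0.839). Ptgr1, which inactivates leukotriene B4, averaged 4.44 ± 0.521 RPKM in BRL37344 old and 7.39 ± 0.168 RPKM in saline young libraries, a difference of -0.68 ± 0.27 (adjusted p = 0.451). Oxgr1 and Gpr17, which have been proposed as further receptors for cysteinyl leukotrienes, did not pass 0.0127 and 0.0112 RPKM. Of 6 other lipoxygenase genes, Alox12, which makes 12-hydroperoxy acids in platelets, was the only one tested, at 0.176 to 2.09 RPKM, and it was not called.

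Prostanoid synthesis had 8 tested genes, with Hpgds called as above. Ptgs1, cyclooxygenase 1, stayed at 40.1 to 52.3 RPKM over the 9 libraries. Ptgds, the other prostaglandin D synthase, averaged 10.2 ± 2.66 RPKM in BRL37344 old, 8.32 ± 1.02 RPKM in saline old and 5.26 ± 0.517 RPKM in saline young libraries. Its differences from saline young were 0.87 ± 0.22 for BRL37344 old (limma adjusted p = 0.158) and 0.61 ± 0.22 for saline old (adjusted p = 0.238), and neither passed. Hpgd, which breaks prostaglandins down, averaged 2.67 ± 1.40 RPKM in BRL37344 old, 2.31 ± 1.25 RPKM in saline old and 7.57 ± 3.52 RPKM in saline young libraries. Its difference of -1.56 ± 0.47 for saline old against saline young had an adjusted p of 0.160. Ptges, a prostaglandin E synthase, averaged 3.11 ± 1.22 RPKM in BRL37344 old and 6.23 ± 1.54 RPKM in saline old libraries, with a difference of -0.94 ± 0.34 and an adjusted p of 0.839.

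Of the prostanoid receptors, 3 of 9 were tested and 0 were called in the 3 comparisons, where 1 had an unadjusted limma p under 0.05 in each comparison with saline young. Over all genes the share under 0.05 was 15% for saline old and 9.38% for BRL37344 old, each against saline young. The shares called there were 1.58% and 0.769%, and 0% were called between the old groups. Tbxa2r, the thromboxane A2 receptor of platelets and their precursors, had 34.6, 31.8 and 54.5 RPKM in BRL37344 old, 42.9, 43.8 and 33.3 RPKM in saline old and 22.1, 23.6 and 15.1 RPKM in saline young libraries. Both old groups were wholly above the young one and overlapped each other. The difference from saline young was 0.96 ± 0.23 for BRL37344 old (limma adjusted p = 0.134) and 0.98 ± 0.23 for saline old (adjusted p = 0.0799), and neither passed. With library quality weights the saline old difference passed (adjusted p = 0.0113), as it did without BRL37344 old replicate 3 (0.0339), and its adjusted p ranged from 0.0113 to 0.275 over the alternatives. The summed level of 6 megakaryocyte markers was 257.4 to 671.2 RPKM in BRL37344 old, 277.8 to 560.5 RPKM in saline old and 180.4 to 337.3 RPKM in saline young libraries. Pf4 alone stood at 100.4 to 520.0 RPKM. Itga2b and Gp9 were wholly higher in saline old than in saline young, Ppbp was wholly lower, and Pf4 and Gp1bb overlapped. Gp6 did not pass 0.313 RPKM. The part of these markers in the Tbxa2r values was not tested.

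All 12 genes of the Gq and Gi branch, through which leukotriene receptors signal, were tested and 0 were called, where 5 had an unadjusted limma p under 0.05 in saline old against saline young and 1 in BRL37344 old against saline old. Over all genes those shares were 15% and 5.64%. In saline old against saline young, 10 of the 12 differences were below 0, as were 52.7% of those of all genes, with a median of -0.42 on the log2 scale against -0.02 over all genes. Plcb2, a phospholipase C of blood cells, averaged 23.6 ± 3.26 RPKM in saline old and 37.4 ± 4.28 RPKM in saline young libraries, a difference of -0.66 ± 0.17 (limma adjusted p = 0.107). Gnai2, the main inhibitory G protein subunit of leukocytes, averaged 436 ± 40.7 RPKM in BRL37344 old, 353 ± 36.1 RPKM in saline old and 428 ± 35.3 RPKM in saline young libraries. The Gnai2 difference was 0.31 ± 0.11 for BRL37344 old against saline old (adjusted p = 0.839) and -0.28 ± 0.11 for saline old against saline young (adjusted p = 0.286).

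**Figure D3:**
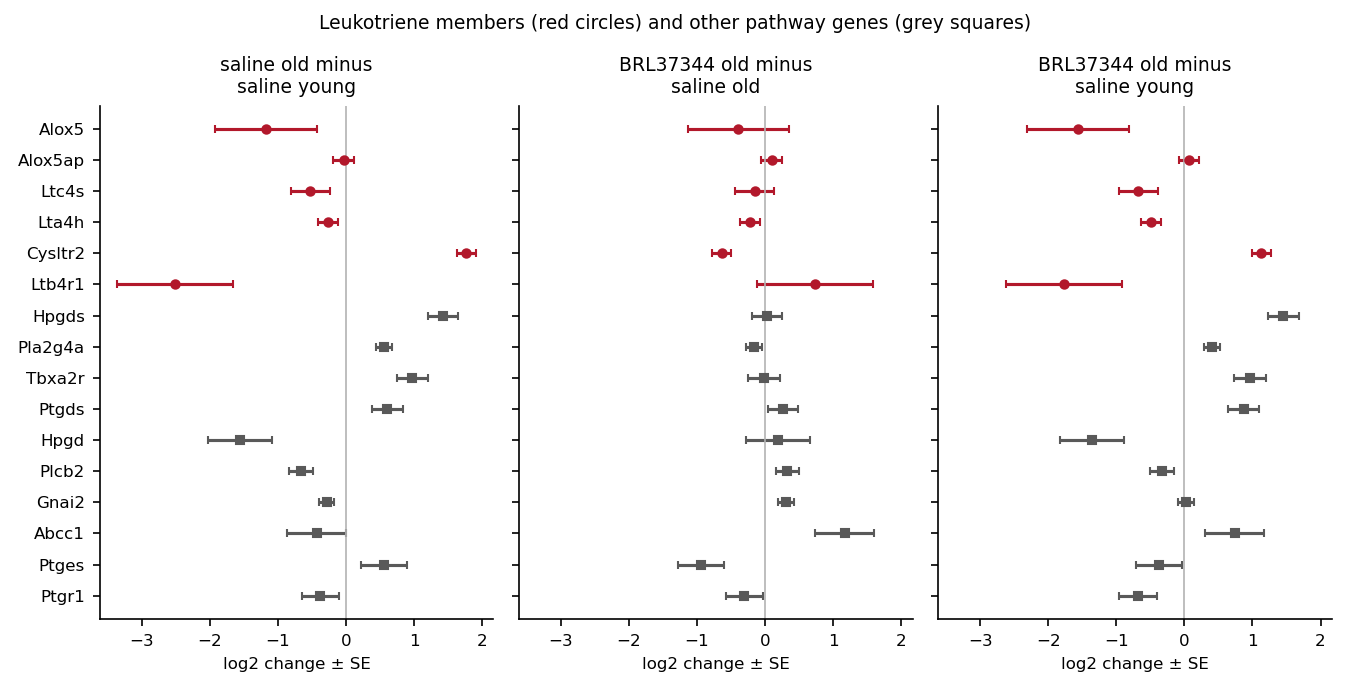
Log2 change ± SE of 6 leukotriene members (red circles) and 10 further pathway genes (grey squares) in each of the 3 comparisons, from the limma model. Cysltr2 is at 1.77, -0.64 and 1.13 from left to right, and Hpgds is at 1.43, 0.03 and 1.45.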

How the data were processed

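HSC RNA was extracted with the RNeasy Plus Micro kit and amplified with the SMART-Seq v4 kit, then tagged with Nextera XT, per the labels' protocols. Partek, STAR 2.5.3a, Trim Galore and build mm10 appear, without a role, in the submitters' processing notes. The authors deposited 1 table of RPKM values for 46626 named genes, with an offset of 0.0001 per transcript. 2 rows that name no gene were left out, as was a second sheet with 18 unnamed value columns. Groups were taken from sample titles. The descriptions that head the columns end in HSC-Y-S in all groups, which, if it stands for young and saline, does not match the titles of the BRL37344 old and saline old libraries.

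A model over all 9 libraries was fitted with limma 3.58.1 in R 4.3.3 (6 residual degrees of freedom, trend and robust options) on log2(RPKM + 0.5) for the 13516 genes at 1 RPKM or more in at least 3 libraries. It was checked on simulated data. P-values were two-sided and adjusted by Benjamini-Hochberg over all genes tested, with a threshold of 0.05. Depth was estimated from the steps between low RPKM values of 2726 genes with 1 transcript. It was set so that many such values fell near a whole read, so their fit is no separate check. Of 229 to 279 low values per library, 74.3 to 81.1% lay within 0.05 of a whole read. As the values are RPKM, no count model was run. No confidence interval was derived from the estimated depth, and some low levels rest on few reads. Members and gene lists were chosen with earlier results of these data known, and no p is given for Cysltr2, or for any member between the old groups. Named pathway genes were those called, or up to 3 per list with the smallest p in a comparison, at a mean log2 level of at least 1, and Ptgs1, Alox12, Oxgr1, Gpr17 and Ltb4r2 were added for their roles. Coordinates are from GENCODE M21 (GRCm38) and promoter windows from RefSeq (GRCm38.p6).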

Additional observations from a re-analysis of the deposited data

How the results depend on the processing

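Each value was recomputed under 10 other settings and with each of the 9 libraries left out. Cysltr2 kept its direction in all of them. As its 3 groups were wholly apart, leaving out a library could not have changed that direction. Nothing further is read from it. Without 1 library it ranged from 1.72 to 1.81 in saline old minus saline young, -0.70 to -0.57 in BRL37344 old minus saline old and 1.07 to 1.19 in BRL37344 old minus saline young. Genes called in saline old against saline young numbered 213, but 140 with no filter on low values, 1284 with sample quality weights, 82 without the 2 libraries highest in neutrophil markers (chosen after seeing the data) and 96 to 586 with 1 library left out. The pathway genes called there numbered 2, but 1 with no filter, 1 with quantile normalization, 5 with sample quality weights, 0 without those 2 libraries and 0 to 3 with 1 library left out. In BRL37344 old against saline old, 0 genes were called, but 1 with a pseudocount of 0.1, 2 with the filter in 6 libraries, 3 with sample quality weights, 2 with only those groups in the model and 0 to 39 with 1 library left out. That upper end came without BRL37344 old replicate 3. In BRL37344 old against saline young, 104 were called, but 169 with sample quality weights, 42 without the 2 libraries and 57 to 163 with 1 left out. The pathway call there was lost (0) with only those groups or without the 2 libraries, and numbered 0 to 1 with 1 left out. With no filter 72 genes were called there. The cause of these changes was not tested.

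Values near 0 changed sign. Between saline old and saline young, Alox5ap was at 0.0051 without the 2 libraries and -0.178 to 0.0832 with 1 library left out. Between BRL37344 old and saline old, with 1 library left out, Alox5 ranged from -0.67 to 0.15 and Alox5ap from -0.0036 to 0.187. There, Hpgds was at -0.0174 with quantile normalization and -0.108 without the 2 libraries (-0.108 to 0.249 with 1 left out), Tbxa2r was at 0.130 and Hpgd at -0.125 without them. With 1 library left out there, Tbxa2r ranged from -0.256 to 0.130, Hpgd from -0.231 to 0.547 and Ptgr1 from -0.515 to 0.0033. Between BRL37344 old and saline young, Gnai2 was at -0.103 with quantile normalization and -0.0236 without the 2 libraries (-0.0446 to 0.0876 with 1 left out), and Alox5ap was at -0.0792 to 0.182 with 1 left out.

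Whether the replicate numbers pair the libraries is not stated in the labels. Deviations of same-numbered libraries correlated at -0.052 to 0.19, which cannot settle how the libraries were matched. With the replicate block, 174 genes were called in saline old against saline young, 0 in BRL37344 old against saline old and 92 in BRL37344 old against saline young, and Hpgds and Pla2g4a still passed in saline old against saline young (adjusted p 0.0299 and 0.0291). Tests planned for read counts were not run, as the values are RPKM. Few reads limit what can be seen in some low values. In BRL37344 old replicate 1 the estimated depth gave about 3.1 reads for Alox5 and 6.0 for Ltb4r1. A level under 1 RPKM did not always mean so few, as Alox5 at 0.855 RPKM in saline old replicate 3 stood for 92.8 reads. Cysltr1 lay below 1 RPKM in every library, and its reads were not estimated.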
